A study of Mus musculus with 16 samples.

Results

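RUNX1 and c-Jun peaks met without a called MyoD or MyoG peak at 5104 regions of the mouse genome. These regions held at least 1 RUNX1 peak and at least 1 c-Jun peak of proliferating myoblasts, no MyoD peak of the same cells and no MyoG peak of early myotubes. They were found by joining all peaks of the 4 deposited peak lists that overlapped by 1 bp or more at chromosomes 1 to 19 of the mouse build mm9. Joining gave 97753 merged regions in 15 classes, so the 5104 regions made up 5.22% of all. They were 26.6% of the 19153 regions with both RUNX1 and c-Jun, 12.3% of the 41336 regions with RUNX1 and 12.5% of the 40939 regions with c-Jun. The regions were chosen by the peak calls themselves, so their number and the presence or absence of each factor are a description and were not tested.

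The data came from chromatin immunoprecipitation followed by sequencing (ChIP-seq) in primary muscle cells of wild-type C57BL/6 mice aged 2 to 3 weeks, grown from satellite cells, the resident stem cells of muscle, of the gastrocnemius. RUNX1 was precipitated with an in-house antibody, MyoD with a mouse antibody and c-Jun with a rabbit antibody, each from proliferating myoblasts after 3 days in culture. MyoG was precipitated with a mouse antibody from cells moved to low-serum differentiation medium for the last 24 hours of 4 days. The control precipitations used rabbit non-immune serum for RUNX1, mouse IgG for MyoD and MyoG, and rabbit IgG for c-Jun. All 16 samples (8 groups of 2) were wild type, and no perturbed cells were among them. The deposited result was 1 list per factor, with 42226 RUNX1, 41480 c-Jun, 45201 MyoD and 61491 MyoG peaks on the chromosomes used. The MyoG list carried only an abbreviation, and MyoG was the 1 factor left for it. No list separated replicates or gave read counts, so depth is unknown, no spread between cultures could be computed and no test was made. Values after ± are standard deviations (SD) over 19 chromosomes and describe variation along the genome.

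RUNX1 is a DNA-binding factor of the Runt family that works with the partner CBFB and is best known from blood formation. In muscle it is induced on injury and denervation. c-Jun is a subunit of AP-1, a leucine-zipper dimer that takes part in responses to growth signals and is typical of proliferating cells. MyoD and MyoG are basic helix-loop-helix factors that bind E-boxes. MyoD marks the muscle lineage in myoblasts, and MyoG appears as cells leave the cell cycle to form myotubes. The study compared where RUNX1, MyoD and c-Jun bind in myoblasts, and the regions described here are those in which a RUNX1 and a c-Jun peak met and neither muscle factor had a called peak.

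Among the 15 classes, the RUNX1 and c-Jun class ranked 8 by number. The same pair of factors with both muscle factors was more frequent, at 10532 regions. The pair with MyoG but without MyoD was found in 2586 regions, and the pair with MyoD but without MyoG in 931 regions. RUNX1 alone was found in 10565 regions and c-Jun alone in 13905 regions. The plot of region numbers shows these counts side by side.

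**Figure D1:**
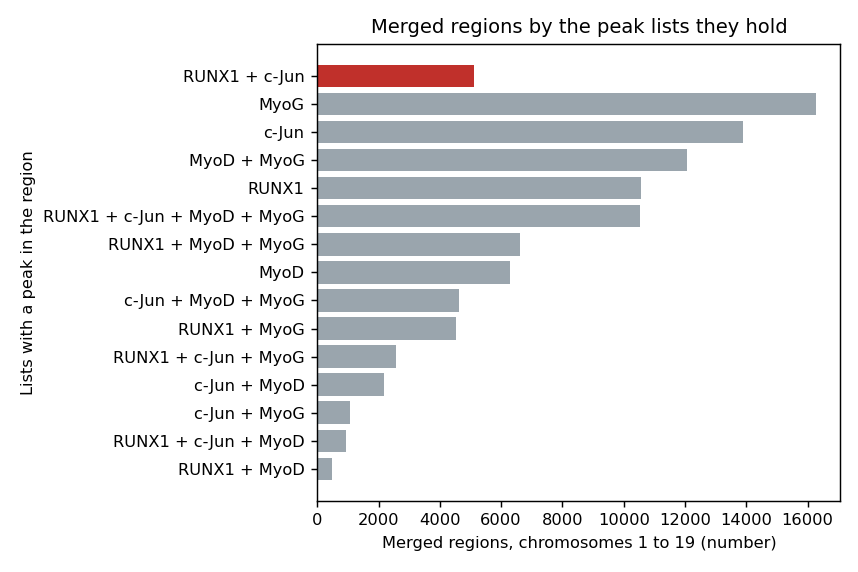
Number of merged regions at chromosomes 1 to 19 (horizontal axis) for each combination of peak lists (vertical axis). The RUNX1 and c-Jun class without MyoD and MyoG (red, 5104 regions) is smaller than the class with all 4 factors (10532) and larger than the classes with only MyoG (2586) or only MyoD (931) added.

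Most of the 5104 regions were simple. A single RUNX1 peak and a single c-Jun peak made up 5003 of them, and 101 regions held more peaks, up to 5. In all they contained 5172 RUNX1 peaks, 12.2% of that list, and 5148 c-Jun peaks, 12.4% of that list. The median region was 1282 bp ± 17.1 wide, and the 10th and 90th percentiles of width were 1024 and 1952 bp. The closest pair of RUNX1 and c-Jun peaks in a region shared a median of 824 bp. In 2407 regions (47.2%) the RUNX1 peak lay wholly inside the c-Jun peak, in 531 (10.4%) the c-Jun peak lay wholly inside the RUNX1 peak, and in 2166 (42.4%) they overlapped in part. Only 176 regions (3.45%) shared less than 50% of the shorter peak. The pairs thus mostly lay on top of each other and seldom touched at their edges.

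The regions were spread over all 19 chromosomes. Their number ran from 161 at chromosome 19 to 396 at chromosome 2. As a share of the regions with RUNX1 and c-Jun, they made up 26.7% ± 1.65 per chromosome, lowest at chromosome 4 at 22.2% and highest at chromosome 14 at 29.5%. Windows of 1 Mb held at least 1 of the regions in 1573 of 2278 windows with any merged region, with a median of 3 among the 1573, and 392 windows held 5 or more. The richest window, chr8:126000001-127000000, held 14, together with 20 regions bound by all 4 factors and no region in which only MyoG or only MyoD joined the pair. The next 4 windows held 13 each. They were chr2:30000001-31000000, chr8:124000001-125000000, chr10:79000001-80000000 and chr11:68000001-69000000, and a further window with 13, tied with them, was chr15:98000001-99000000. All 6 windows also held regions bound by all 4 factors, between 11 and 27 per window. They were ranked by number and not by share, and each held between 91 and 152 merged regions of any class. The number was not adjusted for how many merged regions a window held. In the whole genome, 146 windows held a RUNX1 and c-Jun region of this kind and no region with all 4 factors.

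Each peak carried a score written by the authors' peak caller, with a lowest value of 50.01 and a pile-up at exactly 3100. Its scale is not stated, so scores were turned into percentiles within their own list, where 50 is the middle of the list. By this measure the regions were of middling strength in both lists. The RUNX1 score had a median of 188.3, the 51.8th percentile (± 3.60), and the c-Jun score had a median of 201.9, the 55.1st percentile (± 2.95). At the edge of calling, the RUNX1 or the c-Jun score was under 60 in 722 regions (14.1%). The same share over all regions with the pair was not computed. In the whole RUNX1 list, a score of 60.22 stood at the 9.28th percentile. That value leaves c-Jun out, so it is not a background for the 14.1%. At the other end, 31 regions (0.61%) had a RUNX1 score of 3100 or more, 25 (0.49%) had such a c-Jun score and 0 had both. In the whole lists, 417 of 42226 RUNX1 peaks and 322 of 41480 c-Jun peaks scored as high. With so few such peaks, the 0 says little.

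Both factors scored higher where they met than where either stood alone. The median RUNX1 percentile was 51.8 in the RUNX1 and c-Jun regions and 32.4 ± 1.87 in regions with RUNX1 alone. The median c-Jun percentile was 55.1 in the RUNX1 and c-Jun regions and 36.3 ± 1.83 in regions with c-Jun alone. Each difference had the same direction on 19 of 19 chromosomes. Peak widths were closer: the median RUNX1 peak was 926 bp wide in the RUNX1 and c-Jun regions, against 859 bp for RUNX1 alone, and the median c-Jun peak was 1144 bp wide, against 1068 bp for c-Jun alone. The part of peak width in the score differences was not tested.

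Within the regions, the score of 1 factor said little about the score of the other. Across the 5104 regions, the Pearson correlation of the RUNX1 and c-Jun percentiles was 0.0465. It was 0.152 in the 2586 regions with MyoG added, 0.175 in the 931 with MyoD added and 0.160 in the 10532 with both. These are correlations across regions of the same pair of lists, and regions are not independent replicates. The regions filled all 25 combinations of RUNX1 and c-Jun score quintiles (5 equal parts of each list by score), with between 152 and 267 regions in each. As a share of all RUNX1 and c-Jun regions, however, they were most frequent at 43.1% where the RUNX1 score was in its lowest quintile and the c-Jun score in the next to lowest. The share was 9.80% (218 of 2225) where both scores were in the highest quintile. In that corner, 75.8% of the regions held both MyoD and MyoG.

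**Figure D2:**
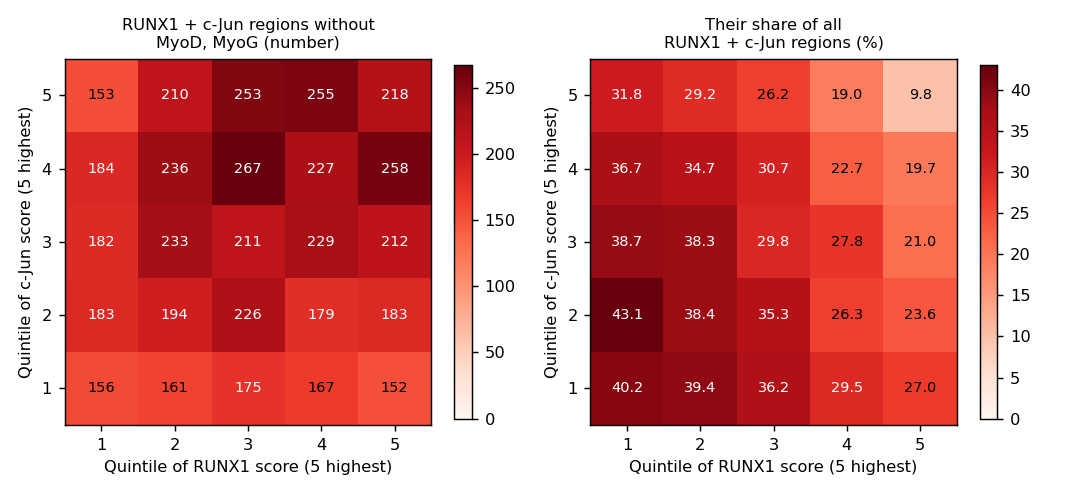
Regions by quintile of the RUNX1 score (horizontal axis) and quintile of the c-Jun score (vertical axis), 5 being the highest. The left panel gives the number of RUNX1 and c-Jun regions without MyoD and MyoG, from 152 to 267 per cell, and the right panel their share of all RUNX1 and c-Jun regions, which is 9.80% where both scores are in the highest quintile.

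The muscle factors joined RUNX1 and c-Jun differently along the 2 scores. Of all regions with the pair, the share without MyoD and MyoG was 40.7% in the lowest decile (10 equal parts of the list) of the RUNX1 score and 14.2% in the highest. By decile of the c-Jun score, it was 34.4% in the lowest and 16.5% in the highest. The decline along both scores was taken up in the main by regions with both muscle factors, whose share was 42.3% in the lowest and 66.8% in the highest decile of RUNX1, and 42.8% and 69.5% in the same deciles of c-Jun.

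The classes with a single muscle factor added went opposite ways. Regions with MyoG added made up 9.19% of the pair's regions in the lowest decile of the RUNX1 score and 18.1% in the highest, whereas along the c-Jun score they made up 19.5% in the lowest and 8.84% in the highest. Regions with MyoD added made up 7.85% in the lowest decile of RUNX1 and 0.906% in the highest. Along c-Jun they made up 3.26% in the lowest decile and 5.18% in the highest.

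**Figure D3:**
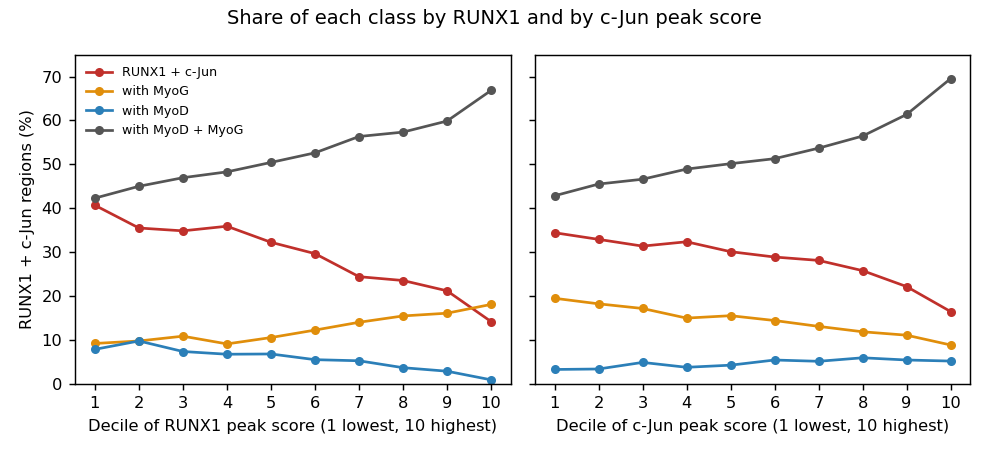
Share of the regions with RUNX1 and c-Jun (vertical axis, percent) that hold no muscle factor (red), MyoG only (orange), MyoD only (blue) or both (grey), by decile of the RUNX1 score (left) or c-Jun score (right). The red line runs down in both panels, from 40.7% to 14.2% on the left and from 34.4% to 16.5% on the right, and the orange line runs up on the left (9.19% to 18.1%) and down on the right (19.5% to 8.84%).

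MyoG counted only among regions without MyoD kept the rise along the RUNX1 score but not the decline along the c-Jun score. These were the 5104 regions and the 2586 with MyoG added. A MyoG peak of myotubes was present in 18.4% of these in the lowest decile of the RUNX1 score and in 56.1% in the highest. Across the deciles of the c-Jun score it stayed between 31.5% and 36.1%. Counted among regions without MyoG, a MyoD peak of myoblasts was present in 16.2% of the lowest decile of RUNX1 and 6.00% of the highest, and in 8.66% of the lowest decile of c-Jun and 23.9% of the highest. Factor and cell stage changed together between the MyoD and the MyoG lists, so the effect of the stage cannot be told apart from that of the factor.

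In medians, the 5104 regions had a RUNX1 percentile of 51.8 ± 3.60, against 72.1 ± 3.86 with MyoG added, a difference of -20.36 that was negative on 19 of 19 chromosomes. Their median c-Jun percentile was 55.1 ± 2.95, against 53.2 ± 4.38 with MyoG added. That difference of 1.89 was positive on 13 chromosomes and negative on 6, within its SD over chromosomes of 4.96. For MyoD the picture was turned round. The c-Jun percentile of 55.1 stood against 67.8 ± 6.26 with MyoD added, a difference of -12.78 that was negative on 19 of 19 chromosomes. The RUNX1 percentile of 51.8 stood against 44.4 ± 5.58 with MyoD added, a difference of 7.39 ± 6.87 that was positive on 16 of 19 chromosomes. It turned to -0.40 once peaks scoring 3100 or more and the widest 1% were left out and percentiles were ranked anew. Regions with all 4 factors had higher medians for both factors, 68.3 ± 2.01 for RUNX1 and 68.5 ± 1.97 for c-Jun, than the regions without muscle factors on 19 of 19 chromosomes.

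**Figure D4:**
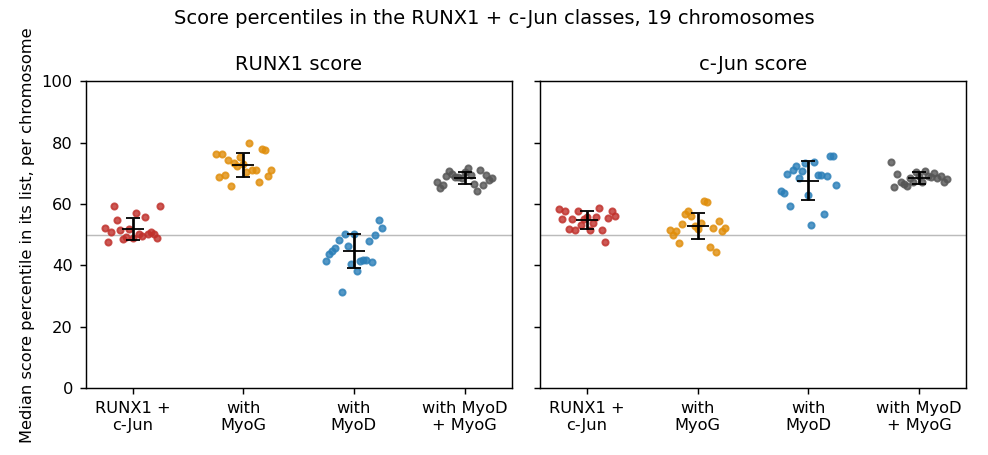
Median percentile of the RUNX1 score (left) and c-Jun score (right) on each of 19 chromosomes (points) for regions with RUNX1 and c-Jun without a muscle factor and with MyoG, MyoD or both added; black bars are the mean and SD over chromosomes, and the grey line marks 50, the middle of each list. On every chromosome the RUNX1 median without a muscle factor sits below that with MyoG added (51.8 overall against 72.1), and the c-Jun median without a muscle factor sits below that with MyoD added (55.1 overall against 67.8).

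Peak width moved with these scores. The median RUNX1 peak was 926 bp ± 45.1 wide in the RUNX1 and c-Jun regions, 1187 bp ± 57.6 with MyoG added and 827 bp ± 58.0 with MyoD added. Within 5 classes of RUNX1 peak width, the median RUNX1 percentile was lower without muscle factors than with MyoG added in each class. It was 30.1 against 33.7 for peaks under 800 bp, 54.4 against 64.8 from 800 to under 1000 bp and 58.8 against 73.5 from 1000 to under 1200 bp. It was 70.9 against 75.8 from 1200 to under 1500 bp and 82.2 against 85.0 from 1500 bp up. In each width class the medians lay closer together than over all widths, where they were 51.8 and 72.1. The part of peak width in that difference was not tested. With every peak replaced by a window of 200 bp around its centre, the difference was -17.47. That setting changed the grouping into classes but kept each peak's score, so it cannot separate score from width. A region was scored by its highest peak, and 1.98% of the RUNX1 and c-Jun regions held more than 1 peak of a list, against 10.6% of those with MyoG added. The second share also counts regions with more than 1 MyoG peak, which do not enter the RUNX1 or c-Jun score.

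The centres of the RUNX1 and c-Jun peaks lay close together. Their median distance in the 5104 regions was 112.5 bp ± 12.6, with 25% of the regions at 47 bp or less and 25% at 246.5 bp or more. The centres lay within 150 bp in 58.4% ± 2.61 of the regions, against a background of 54.3% over all 19153 regions with the pair. The share was 48.0% ± 4.48 with MyoG added, 60.8% ± 11.2 with MyoD added and 53.3% ± 2.94 with both. Compared with regions with MyoG added, whose median distance was 162 bp ± 21.9, the centres were closer on 19 of 19 chromosomes. Compared with regions with both muscle factors, at 135 bp ± 13.5, they were also closer on 19 of 19. Against MyoD added, at 105 bp ± 43.3, the order changed between chromosomes, with the RUNX1 and c-Jun regions higher on 12 and lower on 7. The merge rule itself allows larger distances in the classes with a muscle factor. There a MyoD or MyoG peak can join RUNX1 and c-Jun peaks that do not overlap each other. How much this added to the differences in distance was not tested.

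The distance followed the width of the RUNX1 peak. In the RUNX1 and c-Jun regions the median distance was 64 bp for RUNX1 peaks under 800 bp, 87.5 bp from 800 to under 1000 bp, 153 bp from 1000 to under 1200 bp, 199 bp from 1200 to under 1500 bp and 306 bp from 1500 bp up. The difference of -49.5 bp from regions with MyoG added was -13 bp with windows of 200 bp around each centre. At a matched width it lost its common direction. The distance was 64 against 83.5 bp in the narrowest class, 87.5 against 83.5 bp and 153 against 132 bp in the next, 199 against 200.5 bp in the one after and 306 against 348.5 bp in the widest. Against regions with both muscle factors, the centres were closer in the narrowest class alone, at 64 against 79 bp. In the other 4 width classes they were farther apart, at 87.5 against 86.5 bp, 153 against 127.75 bp, 199 against 184 bp and 306 against 296 bp. By decile of the RUNX1 score the median was 93 bp in the lowest and 159.75 bp in the highest, and by decile of the c-Jun score it was 116.5 bp in the lowest and 104.5 bp in the highest.

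**Figure D5:**
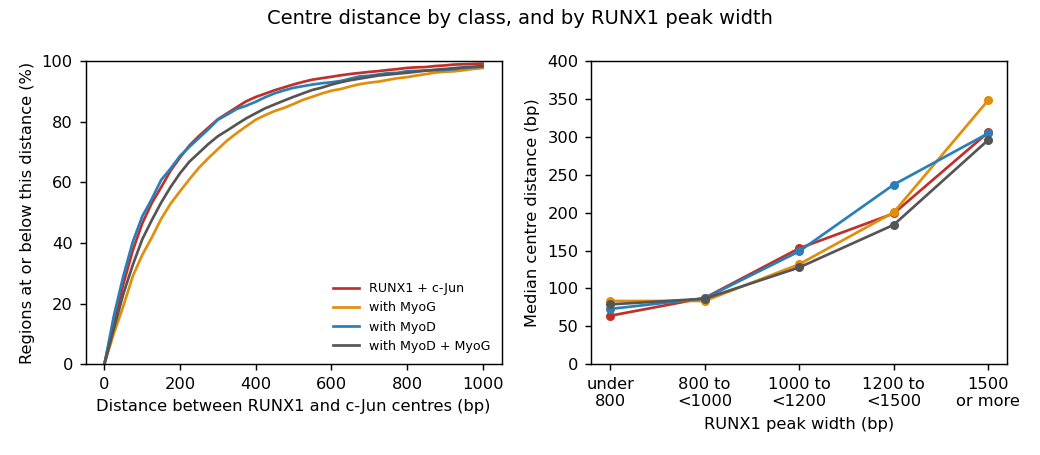
Left, percent of regions (vertical axis) whose RUNX1 and c-Jun centres lie at or below a given distance in bp (horizontal axis). Right, median centre distance in bp by width of the RUNX1 peak. Regions with MyoG added (orange) have the lowest curve on the left, and on the right the median of the regions without a muscle factor (red) runs from 64 bp to 306 bp, with the 4 classes crossing each other.

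Although no MyoD or MyoG peak overlapped these regions, such peaks were often near. The gap from the edge of a region to the nearest MyoD peak had a median of 8962 bp, and to the nearest MyoG peak 7021.5 bp. A MyoD or MyoG peak lay within 1 kb of 703 regions (13.8%) and within 10 kb of 3325 regions (65.1% ± 4.91). Over all 29574 regions that lacked both muscle factors, the background was 13.5% within 1 kb and 61.1% within 10 kb, so both shares were near it. The share within 10 kb was 62.7% ± 3.91 for RUNX1 alone and 58.4% ± 3.94 for c-Jun alone. It was higher for the RUNX1 and c-Jun regions on 15 and on 18 of 19 chromosomes. Both muscle factors had a peak within 10 kb of 2416 of the 5104 regions, and within 100 kb of 4913. For RUNX1 alone the same counts were 4650 and 10037 of 10565 regions, and for c-Jun alone 5665 and 12927 of 13905. Most regions of each of these classes thus had both within 100 kb.

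The closest merged region of any kind lay a median of 3405.5 bp away, against 3120 bp over all merged regions. It held MyoD or MyoG in 67.3% of cases, and 69.7% of all merged regions did. Another RUNX1 and c-Jun region without muscle factors lay within 10 kb of 10.5% ± 2.20 of them. Another of the same class lay as near in 5.88% ± 2.14 of the 2586 regions with MyoG added, 2.58% ± 3.57 of the 931 with MyoD added and 31.5% ± 4.24 of the 10532 with both. Among these classes with the pair, the share ran in the order of the class sizes and was not adjusted for them. The order did not extend to the classes of a single factor. There the share was 21.3% ± 2.58 for the 10565 regions with RUNX1 alone and 21.9% ± 2.66 for the 13905 with c-Jun alone. The background over all 19153 regions with the pair, 21%, includes the large class with both muscle factors.

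The 1 bp rule put some regions on either side by a small margin. Of the 5104 regions, 64 (1.25%) lay under 100 bp from a MyoD or MyoG peak. The nearest, at chr9:112005756-112006919, abutted a MyoD peak with a gap of 0 bp. Next came a region at chr2:118488407-118489620, 4 bp from a MyoG peak, and one at chr13:103441901-103442960, 5 bp from a MyoG peak. The RUNX1 scores of these 3 were 60.22, 90.04 and 76.22 and the c-Jun scores 72.03, 210.7 and 73.97. Just outside the rule, a region at chr4:149369600-149371337 was joined by a MyoG peak over 2 bp, one at chr1:127471690-127473792 by a MyoD and a MyoG peak over 7 bp, and one at chr11:86406055-86407938 by a MyoG peak over 10 bp. Their RUNX1 scores were 79.65, 78.30 and 92.01 and their c-Jun scores 85.81, 139.5 and 871.1. In all, 51 regions with the pair were joined to MyoD or MyoG by under 100 bp, 0.363% of those left out. More regions rested on low scores: 430 of the regions left out (3.06%) held MyoD or MyoG peaks with scores under 60 only. With scores under 100 only there were 1833 (13.0%), which include the 430. How frequent such scores are among all MyoD and MyoG peaks was not computed.

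The 10 strongest regions were ranked by the lower of their 2 percentiles, and each was in the upper 5% of both lists. The top region lay at chr17:37088048-37089322, with a RUNX1 score of 3100 and a c-Jun score of 2263. Its centres were 11 bp apart, and the nearest MyoG peak was 5586 bp away. A region at chr13:63871796-63873320 had scores of 2687 and 2248, centres 109.5 bp apart and no MyoG peak closer than 43291 bp. One at chr16:13504631-13506026 had a RUNX1 score of 2233 and a c-Jun score of 3100, with centres 10.5 bp apart. At chr5:32437107-32439428 the scores were 2451 and 2116, the region was 2322 bp wide, and a MyoD peak lay only 423 bp away. The remaining 6 were chr14:47609216-47610682, chr16:38393692-38395228, chr11:115891042-115893022, chr10:43987534-43988828, chr17:68438682-68440121 and chr2:173276959-173278421. Over the 10 regions, RUNX1 scores ran from 1724 to 3100 and c-Jun scores from 1734 to 3100. Centres lay within 150 bp in 6 of the 10, and a MyoD or MyoG peak lay within 10 kb of 7.

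Some regions paired a peak at the top of 1 list with a peak at the bottom of the other. At chr13:58228485-58231223 the RUNX1 score was 3100 and the c-Jun score 50.68. A region at chr7:28146176-28147177 had scores of 1968 for RUNX1 and 50.96 for c-Jun, and one at chr10:62706014-62707337 had 2401 and 52.54. In the other direction, the c-Jun score was 3100 and the RUNX1 score 51.61 at chr6:17160801-17162103. The c-Jun scores were 2609 at chr7:25254887-25256010 and 2375 at chr12:51068630-51069956, where the RUNX1 scores were 51.32 and 51.49. The region at chromosome 6 lay 199 bp from a MyoG peak and 321 bp from a MyoD peak, whereas the one at chromosome 12 had no MyoG peak within 120214 bp and no MyoD peak within 388165 bp.

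The regions with the most peaks held 5 each. The widest of all, 5230 bp at chr8:107868538-107873767, had 3 RUNX1 and 2 c-Jun peaks with highest scores of 526.1 and 737.9. At chr9:61217893-61221631 there were 2 RUNX1 and 3 c-Jun peaks, with highest scores of 366.1 and 173.5. At chr10:21712616-21716352 there were 3 RUNX1 and 2 c-Jun peaks, with highest scores of 334.4 and 521. This last region was also far from the muscle factors, 54201 bp from a MyoD peak and 68810 bp from a MyoG peak. Genes and DNA sequence at these regions were not analysed here, since no genome or annotation of build mm9 was used.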

How the data were processed

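The binding of 4 factors was mapped by ChIP-seq in 16 samples, and 1 peak list per factor was used. Per the submitters' processing notes, the build was mm9, and Bowtie and CASAVA (1.8.2 and 1.7.0) were used. Peak names in the deposited files, which have no header line, begin with MACS; its version, settings and control, and whether replicates were pooled, are not stated in the labels or files used. The score of each peak is the authors' deposited value and was used only to rank peaks within its list.

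Peaks were merged by overlap of 1 bp or more with Python 3.11.15, numpy 2.4.6 and pandas 2.3.3 (scipy 1.17.1, matplotlib 3.10.9 for intervals and figures). A region's score was its highest peak score per list. The percentile was the mid-rank share of the list with lower scores. Centre distance was the smallest between a RUNX1 and a c-Jun peak. Depth is unknown. Merging and distances were checked on simulated data. No test was made, since no list separates replicates. The members and lists were chosen with earlier results of these data known. Named regions were the 10 with the best lower percentile, the 3 with most peaks, the 3 most unequal in each direction, the 3 nearest to MyoD or MyoG, the 3 joined by the fewest bp, and the 5 windows of 1 Mb with the most regions, plus 1 tied with them. Alternatives were other overlap rules, fixed windows, score minimums, chromosome X, a 1 kb gap to MyoD and MyoG, and removal of peaks at the ceiling. The differences between classes were added after the data were seen.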

Additional observations from a re-analysis of the deposited data

Results flagged for a closer look

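Chromosome X lay outside the rule and was not used in the comparisons. It held 70 regions with RUNX1 and c-Jun and neither MyoD nor MyoG, a count from the same peak calls, given here as a description of peaks that no comparison used. They were 39.3% of its 178 regions with the pair, against 22.2% to 29.5% on the 19 autosomes. No list gives values for the control samples, and the difference was not tested.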

How the results depend on the processing

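Of 103 recomputed values, 63 kept their direction and stayed near the main value, 37 moved and 3 changed sign. Near means within 1.5 times for a count, within the 95% interval (Wilson for a share, order statistics for a median) for a single value, and within 1 SD over chromosomes for a difference between classes. These intervals cover counting over regions only. Where a setting removed or added peaks, percentiles were ranked anew within the changed lists. The RUNX1 difference from regions with MyoG added ran from -20.74 to -16.86 and the c-Jun difference from regions with MyoD added from -13.49 to -8.83, over 8 alternatives each. The RUNX1 difference from regions with MyoD added changed sign to -0.40 without peaks scoring 3100 or more and the widest 1% (called ceiling and widest peaks here). The c-Jun difference from regions with MyoG added changed sign to -0.24 with a score of at least 100 and to -0.081 without the ceiling and widest peaks. The number of regions was 2841 in the stronger 50% of each list, a smaller input by construction.

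Regions without muscle factors were 27.8% of the pair's regions with an overlap of 50% of the shorter peak and 29.3% without ceiling and widest peaks. They were 32.0% with a score of at least 100, 35.7% in the stronger 50% and 23.0% with no muscle factor within 1 kb. They were 37.3% with the 150 bp centre rule and 34.9% with windows of 200 bp. There overlapping MyoD or MyoG peaks can stay unjoined, so absence is looser. The median centre distance was 56 bp with the 150 bp centre rule and 68 bp with windows of 200 bp, which both limit it by construction, 123.5 bp with a score of at least 100 and 135 bp in the stronger 50%. Its difference from regions with MyoG added was -12 bp and -13 bp under the first pair. Centres within 150 bp made up 59.9% with an overlap of 50%, 85.5% with windows, 56.1% with a score of at least 100 and 53.7% in the stronger 50%.

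The median RUNX1 percentile was 53.8 with centres within 150 bp, 53.2 with windows, 52.8 in the stronger 50% and 53.7 without ceiling and widest peaks. The median c-Jun percentile was 58.9, 58.0, 53.7 and 56.9 in the same order. Values of the last pair of settings were ranked anew and are not on the full lists' scale. A muscle factor within 10 kb was found at 66.8% with an overlap of 50%, 75.1% with centres within 150 bp, 71.4% with windows, 56.4% with a score of at least 100, 49.0% in the stronger 50% and 59.6% with none within 1 kb. Another region of the class within 10 kb was found at 8.56% with centres within 150 bp, 8.30% with windows, 7.88% with a score of at least 100, 6.83% in the stronger 50% and 8.38% with no muscle factor within 1 kb. Except where stated, the cause was not tested. No paired analysis was possible because replicates are not separated in any list. For the same reason no replicate could be left out. Motifs were not run without a genome of the files' build. With unknown depth, a missing MyoD or MyoG peak may be binding below the calling threshold.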
